A study of Mus musculus with 2 samples.

Results

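A set of 10 genes of liver inflammation, taken by symbol, is described here among the 22609 gene symbols counted: the cytokines Il1a and Il1b, the chemokines Cxcl1, Cxcl9, Cxcl10, Ccl2 and Ccl5, and the NF-kB genes Tnfaip3, Nfkbia and Nfkb1. All 10 were found under these symbols. RNA was sequenced from the livers of male C57BL/6 mice. Both groups ate a high-fat diet, in which fat gave 45% of the energy, for 16 weeks beginning at the age of 8 weeks. One library is labelled Lrg1 knockout, from mice lacking Lrg1 in the whole body, and the other wild type, from C57BL/6J mice. Lrg1 encodes a secreted leucine-rich glycoprotein, and the study asked how its loss relates to liver gene expression. The labels do not say how many mice stand behind each library. Each group has a single library, without replicates and therefore without a test, so a difference below is one between these 2 libraries and not between the genotypes.

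NF-kB is a family of transcription factors held in the cytoplasm by inhibitor proteins, the IkB family. Signals from Toll-like, interleukin 1 and tumour necrosis factor receptors lead to the destruction of these inhibitors, and the freed factors enter the nucleus and switch on cytokines and chemokines together with their own inhibitors, Nfkbia and Tnfaip3, which close the loop. In liver these genes can be expressed by resident macrophages (Kupffer cells), endothelium, stellate cells and hepatocytes, and the chemokines draw in neutrophils, monocytes and T cells. Cxcl9 and Cxcl10 depend mainly on interferon.

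The library labelled Lrg1 knockout held 18738397 reads in genes and the wild-type library 23311906. Lrg1 itself had 17572 reads in the library labelled knockout and 26958 in wild type, a ratio of 0.766 (95% interval 0.751 to 0.780). Lrg1 reads were thus still many in the library labelled knockout, and the count does not bear out the label. Where in the gene these reads lie is not analysed here, so the label could not be settled. The labelled tissue was checked against 10 hepatocyte markers, all of which had reads and which summed to 109000 CPM in the library labelled knockout and 124000 CPM in wild type. CPM is the read count scaled to library size with the trimmed mean of M-values, and 1 read corresponds to 0.0519 CPM in the library labelled knockout and 0.0441 CPM in wild type. Scaling by total count instead would move the median log2 ratio of all measured genes up by 0.083, which turns log2 ratios just below 0 positive. Intervals are 95% intervals for counting error only, exact Poisson for a level and exact Clopper-Pearson for a ratio. In bulk tissue, fewer cells of a type and less RNA per cell cannot be told apart.

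The promoters of the genes that differed most, and of other members with an NF-kB motif, are shown because these genes are classic NF-kB targets. RefSeq windows of 250 bases before to 50 after the gene's start, on build GRCm38.p6, were matched for 7 of the 10 genes. Capitals mark the NF-kB consensus, on either strand, in the first 4.
Cxcl1, chr5:90890995-90891294, forward strand: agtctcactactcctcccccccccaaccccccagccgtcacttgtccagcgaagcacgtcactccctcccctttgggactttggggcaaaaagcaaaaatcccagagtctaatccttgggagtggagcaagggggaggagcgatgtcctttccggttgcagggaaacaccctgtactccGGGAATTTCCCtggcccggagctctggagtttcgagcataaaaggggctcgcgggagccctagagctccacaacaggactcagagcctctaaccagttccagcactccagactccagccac
Tnfaip3, chr10:19015361-19015660, reverse strand: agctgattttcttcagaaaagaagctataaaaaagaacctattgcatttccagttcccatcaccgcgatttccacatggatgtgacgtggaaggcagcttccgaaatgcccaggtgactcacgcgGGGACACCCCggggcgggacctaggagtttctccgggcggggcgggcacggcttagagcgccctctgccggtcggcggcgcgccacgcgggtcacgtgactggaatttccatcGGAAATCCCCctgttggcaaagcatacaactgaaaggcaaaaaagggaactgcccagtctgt
Cxcl10, chr5:92348840-92349139, reverse strand: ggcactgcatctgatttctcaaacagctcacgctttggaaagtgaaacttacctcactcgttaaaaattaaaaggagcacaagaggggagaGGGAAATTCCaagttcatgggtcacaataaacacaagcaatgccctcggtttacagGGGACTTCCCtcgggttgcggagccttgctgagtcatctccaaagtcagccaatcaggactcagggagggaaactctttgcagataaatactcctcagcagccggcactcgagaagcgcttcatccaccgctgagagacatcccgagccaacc
Nfkbia, chr12:55492598-55492897, reverse strand: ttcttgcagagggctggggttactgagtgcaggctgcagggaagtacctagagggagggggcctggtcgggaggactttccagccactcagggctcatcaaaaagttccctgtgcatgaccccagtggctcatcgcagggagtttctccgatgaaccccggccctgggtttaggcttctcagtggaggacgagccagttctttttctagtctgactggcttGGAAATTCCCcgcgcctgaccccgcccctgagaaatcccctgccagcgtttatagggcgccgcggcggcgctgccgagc
The consensus lay in windows of 4 of the 7 genes, against 5.14% of all 27025 genes with a window. It was chosen after values were seen, for genes known as NF-kB targets, so this difference is no evidence of enrichment. A looser NF-kB pattern, which fixes only the outer bases, lay in 5 of the 7 genes and in 53.5% of all genes. In Cxcl1 a consensus site that reads on both strands began 71 bases before the start. Cxcl10 held 2 sites, beginning at -159 and -103, and Tnfaip3 held 2, at -125 and -12. The Nfkbia site began at -29. The second listed start of Tnfaip3 had no match to the consensus in its window. In the windows of both interleukin genes, shown next, capitals mark TATAAA, which began at -32 in Il1a and at -31 in Il1b.
Il1a, chr2:129309923-129310222, reverse strand: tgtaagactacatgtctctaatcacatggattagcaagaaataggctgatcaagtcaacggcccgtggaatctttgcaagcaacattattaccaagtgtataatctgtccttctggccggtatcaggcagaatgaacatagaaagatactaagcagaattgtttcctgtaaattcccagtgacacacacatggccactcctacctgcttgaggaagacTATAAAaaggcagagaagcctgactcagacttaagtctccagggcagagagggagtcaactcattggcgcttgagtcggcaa
Il1b, chr2:129371090-129371389, reverse strand: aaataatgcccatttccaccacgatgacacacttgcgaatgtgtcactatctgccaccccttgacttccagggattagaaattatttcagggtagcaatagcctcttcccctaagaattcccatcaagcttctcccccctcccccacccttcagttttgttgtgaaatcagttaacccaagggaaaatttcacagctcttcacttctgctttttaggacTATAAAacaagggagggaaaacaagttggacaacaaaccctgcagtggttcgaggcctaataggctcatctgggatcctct
TATAAA lay on either strand, at any place in the window, in 5 of the 7 genes and in 15.7% of all genes. In Cxcl9 and Tnfaip3 it began farther from the start, at -195 and -225, and in Nfkbia it lay on the reverse strand only. As for the consensus, these counts are no evidence of enrichment. A match is a description of these letters and not evidence of binding.

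Il1a and Il1b were more than 2-fold higher in the library labelled Lrg1 knockout, and Cxcl1 and Tnfaip3 more than 2-fold lower. These were 2 and 2 of the 10 genes, and the other 6 lay within 2-fold. All 10 had at least 50 reads summed over both libraries, the minimum for a gene to count as measured. Genes were counted as 2-fold apart by a log2 ratio of at least 1 or at most -1, taken after a prior count of 0.5 was added. Among all 11411 measured genes, 4.2% were 2-fold apart, 1.7% higher and 2.5% lower. Genes with few reads were apart more often, 10.3% of those with under 200 summed reads, 3.14% of those with 200 to under 1000 and 2.59% of the rest. In the lowest class Il1a was 1 of 3 genes of the set, and in the middle class Il1b, Cxcl1 and Tnfaip3 were 3 of 5. The median log2 ratio of the 10 genes was 0.03, beside -0.01 for all measured genes, with 5 genes above 0 and 5 below, beside 48.3% of measured genes above 0. Counting intervals of 5 of the 10 genes, Nfkbia among them, left out a ratio of 1, beside 48.6% of all measured genes, a share close to the background. The genes were put together with earlier results of these data known, so these counts describe them and support no statement about the group.

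**Figure D1:**
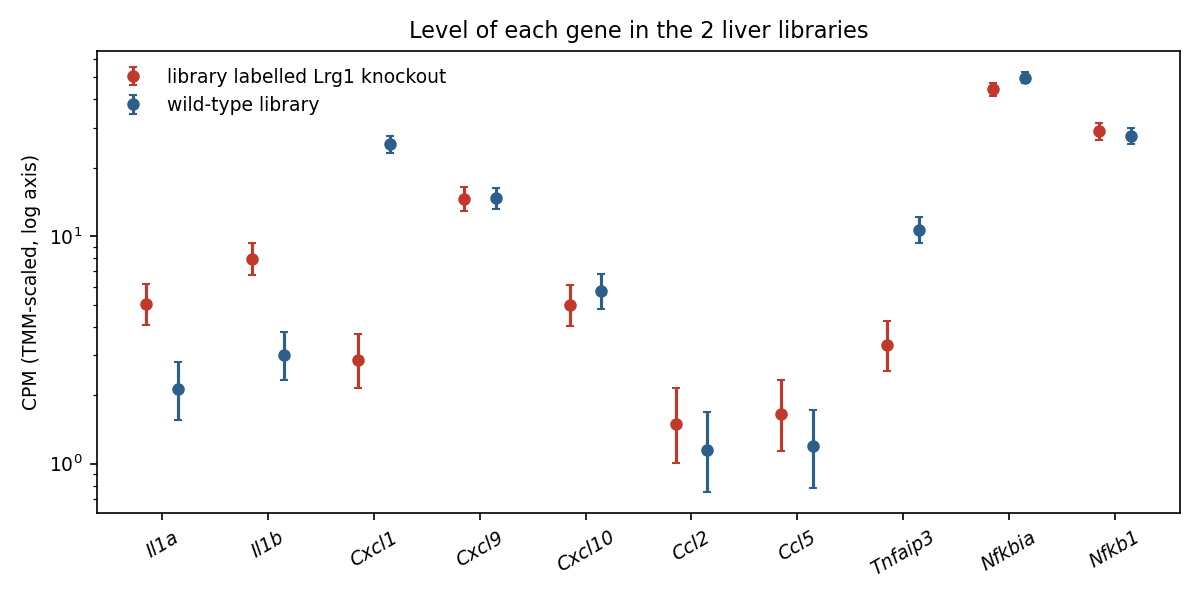
CPM of each gene (log axis) for the library labelled knockout (left point of each pair) and for the wild-type library (right point), with exact 95% Poisson intervals. The pairs stand clear of each other for Il1a, Il1b, Cxcl1 and Tnfaip3, and the intervals overlap for the other 6 genes.

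The interleukin 1 genes encode alarm cytokines that signal through the same receptor, Il1a as a factor released from damaged cells and Il1b as a product of activated macrophages that must be cleaved by caspase 1. Il1b had 153 reads in the library labelled knockout and 68 in wild type, or 7.93 CPM (6.73 to 9.30) against 3.0 CPM (2.33 to 3.81). Its ratio was 2.64 (1.97 to 3.57), a log2 ratio of 1.40. Il1a had 97 reads in the library labelled knockout and 48 in wild type, or 5.03 CPM (4.08 to 6.14) against 2.12 CPM (1.56 to 2.81). Its ratio was 2.37 (1.66 to 3.43), a log2 ratio of 1.24. For both genes the Poisson intervals of the libraries did not overlap, but the lower bounds of both ratios lay under 2, so counting error alone leaves room for a difference of less than 2-fold. Il1a exceeded 99.1% and Il1b 99.3% of measured genes in log2 ratio.

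The balance of both genes did not differ between the libraries beyond counting error. There were 0.634 Il1a reads per Il1b read in the library labelled knockout and 0.706 in wild type, and the quotient of these values was 0.898 (0.560 to 1.45; exact conditional interval). This quotient does not depend on how the libraries are scaled. Il1a and Il1b are neighbours on chromosome 2. Gm14023, annotated on the opposite strand, shares 222 exon bases with Il1a and had 16 labelled-knockout and 22 wild-type reads. Il1bos, which is not among the counted symbols, shares 25 with Il1b. Since the strand setting of the counting is not stated in the labels, reads of such pairs may not be told apart.

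The other genes of the interleukin 1 system did not share the higher ratio of the cytokines. Of 15 further genes of the family, its receptors and the inflammasome, 9 were measured, 3 higher in the library labelled knockout and 6 lower, with a median log2 ratio of -0.06 (0.02 with scaling by total count) and 0 genes 2-fold apart in either direction by the log2 ratio, which includes a prior count. Pycard, the inflammasome adaptor, lay at the threshold, with 16 reads in the library labelled knockout and 38 in wild type, a ratio without the prior count of 0.495 (0.257 to 0.908). Il1r1, the signalling receptor, had 645 reads in the library labelled knockout and 1406 in wild type, a ratio of 0.539 (0.490 to 0.592) at log2 -0.89. Il1rap, the accessory chain of the receptor, was at log2 0.15 on 3297 labelled-knockout and 3483 wild-type reads. Il1rn, the receptor antagonist, was at -0.24 with an interval that spanned 0, and Il18bp, which neutralises interleukin 18, was at -0.06. Il1a and Il1b were thus higher in the library in which Il1r1 was lower and Il1rap slightly higher.

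Cxcl1 is a chemokine that draws neutrophils through the receptor Cxcr2, and hepatocytes themselves can make it. It had 55 reads in the library labelled knockout and 574 in wild type, or 2.85 CPM (2.15 to 3.71) against 25.3 CPM (23.3 to 27.5). This was the largest difference of the 10 genes, 8.88-fold lower (6.73 to 11.9) with a log2 ratio of -3.14, and 0.131% of measured genes had a lower log2 ratio. In order of read count among the 11411 measured genes, Cxcl1 took place 10180 in the library labelled knockout and place 4785 in wild type. Of its 1970 distinct windows of 50 bases, the length of the reads, 0 occurred in transcripts of another gene in GENCODE M21. Only exact matches were sought, so copies with differing bases or outside annotated transcripts were not checked.

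The genes that lie beside Cxcl1 on chromosome 5 and encode related chemokines had few reads in either library. Cxcl2, which also acts through Cxcr2, had 7 reads in the library labelled knockout and 2 in wild type, a ratio of 4.11 with an interval from 0.783 to 40.6. Cxcl5 had 0 labelled-knockout and 3 wild-type reads. The platelet chemokines Ppbp and Pf4 had 2 and 9 reads in the library labelled knockout, against 10 and 11 in wild type. Cxcl3 and Cxcl15 had 0 in both, which allows up to 0.156 CPM in the library labelled knockout and 0.132 CPM in wild type by a limit of 3 counts. The upper bounds of the exact Poisson interval were 0.191 CPM in the library labelled knockout and 0.163 CPM in wild type. None of these was measured by the minimum of 50 reads, and Cxcl1 held nearly all reads of this cluster in wild type.

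Neutrophil markers did not differ beside Cxcl1 beyond counting error. The 11 markers found summed to 9.23 CPM in the library labelled knockout and 8.34 CPM in wild type, a ratio of 1.11 (0.896 to 1.36). Of these markers 9 had reads in the library labelled knockout and 11 in wild type, with Mpo and Camp at 0 in the library labelled knockout. Csf3r, the granulocyte growth factor receptor, had 63 labelled-knockout and 66 wild-type reads. The alarmins S100a9 and S100a8 had 51 and 25 reads in the library labelled knockout, against 45 and 28 in wild type. The Cxcl1 receptor Cxcr2 had 8 reads in the library labelled knockout and 6 in wild type. Whether neutrophils have a part in the Cxcl1 difference was not tested.

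The balance of Cxcl1 to Il1b, both NF-kB targets, restates their ratios without scaling, and the pair joins the lowest and the highest ratio of the 10 genes. There were 0.359 Cxcl1 reads per Il1b read in the library labelled knockout and 8.44 in wild type, a quotient of 0.0429 (0.0280 to 0.0646). Of this pair Il1b was the more counted gene in the library labelled knockout and Cxcl1 in wild type.

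**Figure D2:**
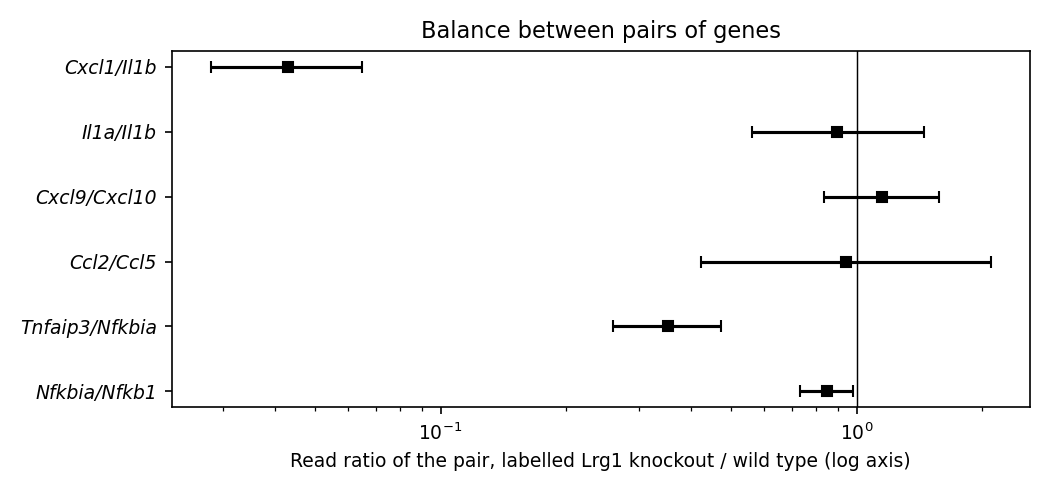
For each of 6 pairs of genes, the read ratio of the pair in the library labelled knockout divided by that in wild type (log axis), with exact 95% conditional intervals. Cxcl1/Il1b at 0.0429 and Tnfaip3/Nfkbia at 0.352 lie far below 1, while the intervals of Il1a/Il1b, Cxcl9/Cxcl10 and Ccl2/Ccl5 include 1.

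The interferon-induced chemokines Cxcl9 and Cxcl10, which draw T cells and natural killer cells through Cxcr3, did not differ between the libraries beyond counting error. Cxcl9 had 281 reads in the library labelled knockout and 332 in wild type, or 14.6 CPM (12.9 to 16.4) against 14.7 CPM (13.1 to 16.3). Its ratio was 0.994 (0.845 to 1.17), and its log2 ratio of -0.01 turned to 0.07 with scaling by total count. Cxcl10 had 96 reads in the library labelled knockout and 130 in wild type, 4.98 CPM against 5.74 CPM, with a ratio of 0.867 (0.659 to 1.14). Differences smaller than these intervals were not detectable at this depth. The Cxcl9 to Cxcl10 read balance was 2.93 in the library labelled knockout and 2.55 in wild type, with a quotient of 1.15 (0.833 to 1.58).

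Cxcl11, the third gene of this cluster, had 26 reads in the library labelled knockout and 50 in wild type, at log2 -0.70. Art3, on the opposite strand, shares 133 exon bases with Cxcl10 and had 23 labelled-knockout and 30 wild-type reads. Among 14 genes of interferon gamma signalling, 12 were measured, 9 lower and 3 higher in the library labelled knockout, with a median log2 ratio of -0.16 and 0 genes 2-fold apart in either direction. Irf1, an interferon-induced transcription factor, was at -0.26 on 593 labelled-knockout and 836 wild-type reads. Ifngr2, a receptor chain, was at 0.09, and the kinase Jak1 at -0.13. Ifng itself, named for its role after its counts were seen, had 8 reads in the library labelled knockout and 1 in wild type. It was not measured, and its ratio of 9.4 had an interval from 1.26 to 417.

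Ccl2, which draws monocytes through Ccr2, and Ccl5, which draws T cells and macrophages, had the fewest reads of the 10 genes. Ccl2 had 29 reads in the library labelled knockout and 26 in wild type, 1.5 CPM (1.01 to 2.16) against 1.15 CPM (0.750 to 1.68). Its ratio was 1.31 (0.745 to 2.32). Ccl5 had 32 reads in the library labelled knockout and 27 in wild type, 1.66 CPM (1.14 to 2.34) against 1.19 CPM (0.785 to 1.73). Its ratio was 1.39 (0.808 to 2.42). The intervals of both ratios ran past 2 and under 1, so at this depth a 2-fold higher level and equal levels could not be told apart.

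The clusters around both CC chemokines on chromosome 11 were uneven. Beside Ccl2, the genes Ccl7, Ccl8, Ccl11 and Ccl12 had from 0 to 6 reads per library. Beside Ccl5, Ccl3 had 2 reads in the library labelled knockout and 11 in wild type, and Ccl4 had 3 labelled-knockout and 4 wild-type reads. The cluster also held abundant genes, with Ccl6 at log2 0.31 on 261 labelled-knockout and 248 wild-type reads and Ccl9 at log2 -0.75 on 354 labelled-knockout and 701 wild-type reads. Genes of the cluster thus had ratios on both sides of 0.

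Of 25 other chemokines, 9 were measured, 2 higher in the library labelled knockout and 7 lower, with a median log2 ratio of -0.17, 0 more than 2-fold higher and 1 more than 2-fold lower. That gene was Cxcl13, a B cell attractant, with 25 reads in the library labelled knockout and 157 in wild type, at log2 -2.40. Cxcl12, a constitutive chemokine of endothelium and stroma and the most counted of the list, was at log2 0.82 on 8211 labelled-knockout and 5479 wild-type reads, and Cxcl16, a membrane-bound chemokine, at -0.17. Of 14 chemokine receptors 6 were measured, 2 lower and 4 higher in the library labelled knockout, with a median of 0.34 and 0 genes 2-fold apart in either direction. Ccr2, the Ccl2 receptor, was at -0.14 and the monocyte receptor Cx3cr1 at -0.32, both with intervals that spanned 0.

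**Figure D3:**
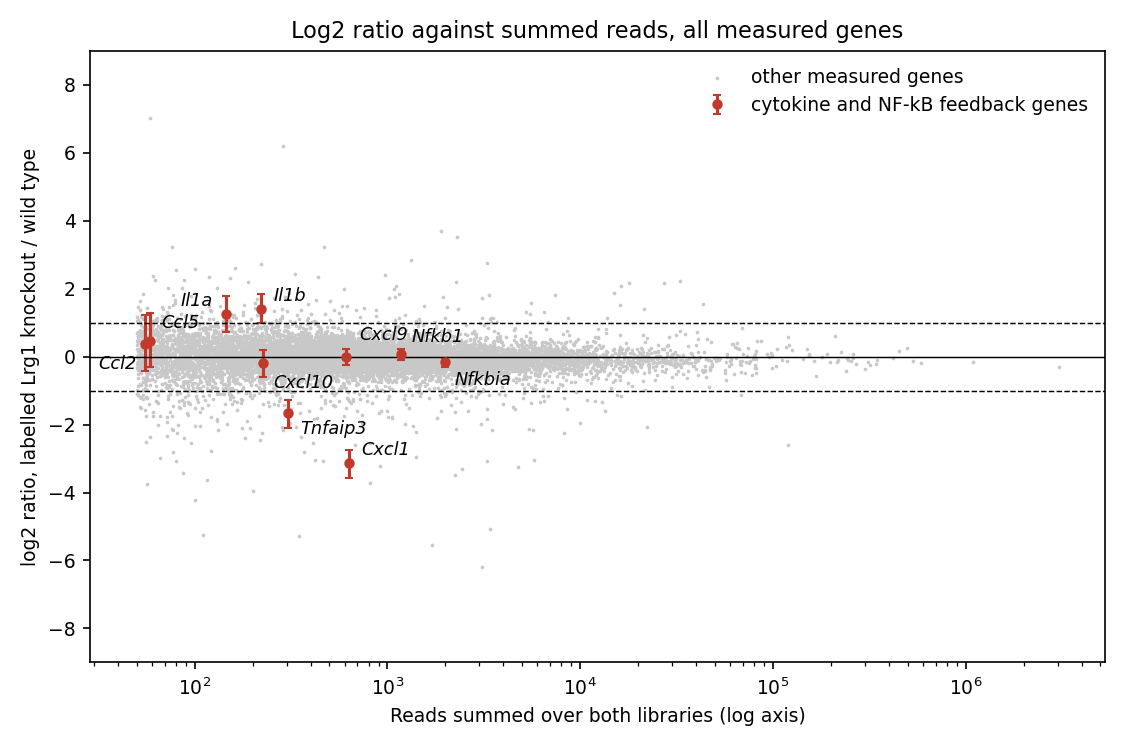
Log2 ratio of the library labelled Lrg1 knockout to wild type against reads summed over both libraries (log axis) for all 11411 measured genes in grey and the 10 cytokine and NF-kB feedback genes in red, with exact 95% counting intervals; dashed lines mark 2-fold. Cxcl1 (-3.14) and Tnfaip3 (-1.67) lie below the lower line and Il1b (1.40) and Il1a (1.24) above the upper one, while the wide intervals of Ccl2 and Ccl5 reflect their 55 and 59 summed reads.

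The feedback genes did not share a ratio. Tnfaip3 encodes A20, an enzyme that edits ubiquitin chains and shuts down signalling from the tumour necrosis factor and Toll-like receptors. It had 64 reads in the library labelled knockout and 241 in wild type, or 3.32 CPM (2.56 to 4.24) against 10.6 CPM (9.34 to 12.1). This was 3.21-fold lower (2.42 to 4.29), a log2 ratio of -1.67, and even the bound nearest to 1 was past 2-fold. Nfkbia encodes IkB alpha, the inhibitor that NF-kB rapidly resynthesises. It had 852 reads in the library labelled knockout and 1129 in wild type, or 44.2 CPM (41.3 to 47.3) against 49.8 CPM (47.0 to 52.8). Its ratio of 0.887 (0.810 to 0.970) left out 1, but with scaling by total count it was 0.939 (0.858 to 1.03) and without the 20 most abundant genes 0.924 (0.844 to 1.01), so the difference depends on the scaling.

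Nfkb1 encodes p105, the precursor of the p50 subunit and itself an inhibitor. It had 557 reads in the library labelled knockout and 625 in wild type, or 28.9 CPM (26.5 to 31.4) against 27.6 CPM (25.5 to 29.8), with a ratio of 1.05 (0.932 to 1.18). Between the feedback genes, there were 0.0751 Tnfaip3 reads per Nfkbia read in the library labelled knockout and 0.213 in wild type, a quotient of 0.352 (0.259 to 0.473). For Nfkbia over Nfkb1 there were 1.53 reads per read in the library labelled knockout and 1.81 in wild type, with a quotient of 0.847 (0.731 to 0.981). The capitals in the promoters above mark the consensus both in Cxcl1 and Tnfaip3, which were more than 2-fold lower, and in Nfkbia and Cxcl10, which were within 2-fold.

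Among 20 other feedback inhibitors of NF-kB, 17 were measured, 7 higher in the library labelled knockout and 10 lower, with a median log2 ratio of -0.11, 0 more than 2-fold higher and 1 more than 2-fold lower. That gene was Zfp36, tristetraprolin, which destabilises cytokine mRNAs, with 1466 reads in the library labelled knockout and 3646 in wild type, at log2 -1.08. Tax1bp1, which works with A20, was at -0.16 on 3780 labelled-knockout and 4946 wild-type reads. Itch, a ubiquitin ligase of the same complex, was at -0.26 and Rnf11, another of its members, at 0.12. The ratio of Tnfaip3 was thus lower than those of the partners named.

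The machinery upstream of the feedback genes showed smaller differences than Tnfaip3, with log2 ratios from -0.87 to 0.42, but not smaller than Nfkbia and Nfkb1 throughout. All 11 genes of the IkB kinase complex, its upstream kinases and the NF-kB subunits were measured, 8 with a lower and 3 with a higher level in the library labelled knockout, with a median log2 ratio of -0.11 and 0 genes 2-fold apart in either direction. The kinase subunits Chuk, Ikbkb and Ikbkg were at 0.21, -0.11 and -0.12. Rela, the p65 subunit, had 1073 reads in the library labelled knockout and 1210 in wild type, at 0.06 with an interval that spanned 0.

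Of 13 genes of the tumour necrosis factor family and its receptors, 8 were measured, 4 higher in the library labelled knockout and 4 lower, with a median of 0.01 that was 0 or below under 4 of 10 alternatives and 0 genes 2-fold apart in either direction. Tnfrsf1a, the main receptor of tumour necrosis factor, was at -0.23 on 1881 labelled-knockout and 2596 wild-type reads, Tnfrsf1b at -0.12, the lymphotoxin receptor Ltbr at -0.24 and the adaptor kinase Ripk1 at -0.13. Tnf itself, named for its role after its counts were seen, had 12 reads in the library labelled knockout and 7 in wild type. Of 23 genes of Toll-like receptors and their adaptors, 20 were measured, 10 higher in the library labelled knockout and 10 lower, with a median of 0.02 and a mean of -0.08, 0 more than 2-fold higher and 1 more than 2-fold lower. That gene was Irak3, an inhibitor of the pathway found in macrophages. It had 28 reads in the library labelled knockout and 74 in wild type, at -1.16. Tab2, an adaptor of the kinase Map3k7, was at 0.59 and Map3k7 at 0.12.

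Of 25 other genes that NF-kB can induce, 18 were measured, 5 higher in the library labelled knockout and 13 lower, with a median of -0.14, 1 more than 2-fold higher and 2 more than 2-fold lower. Lcn2, a siderophore-binding acute phase protein, was at -2.14 on 366 labelled-knockout and 1893 wild-type reads and the kinase Pim1 at -1.17 on 280 labelled-knockout and 742 wild-type reads. Steap4, a metalloreductase, was at -0.92 on 2391 labelled-knockout and 5308 wild-type reads. Cd83, a marker of activated antigen-presenting cells, was higher at 1.04 on 90 reads in the library labelled knockout and 51 in wild type. Lcn2, Pim1 and Steap4 are also induced by interleukin 6 through Stat3, so the list is not specific to NF-kB.

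**Figure D4:**
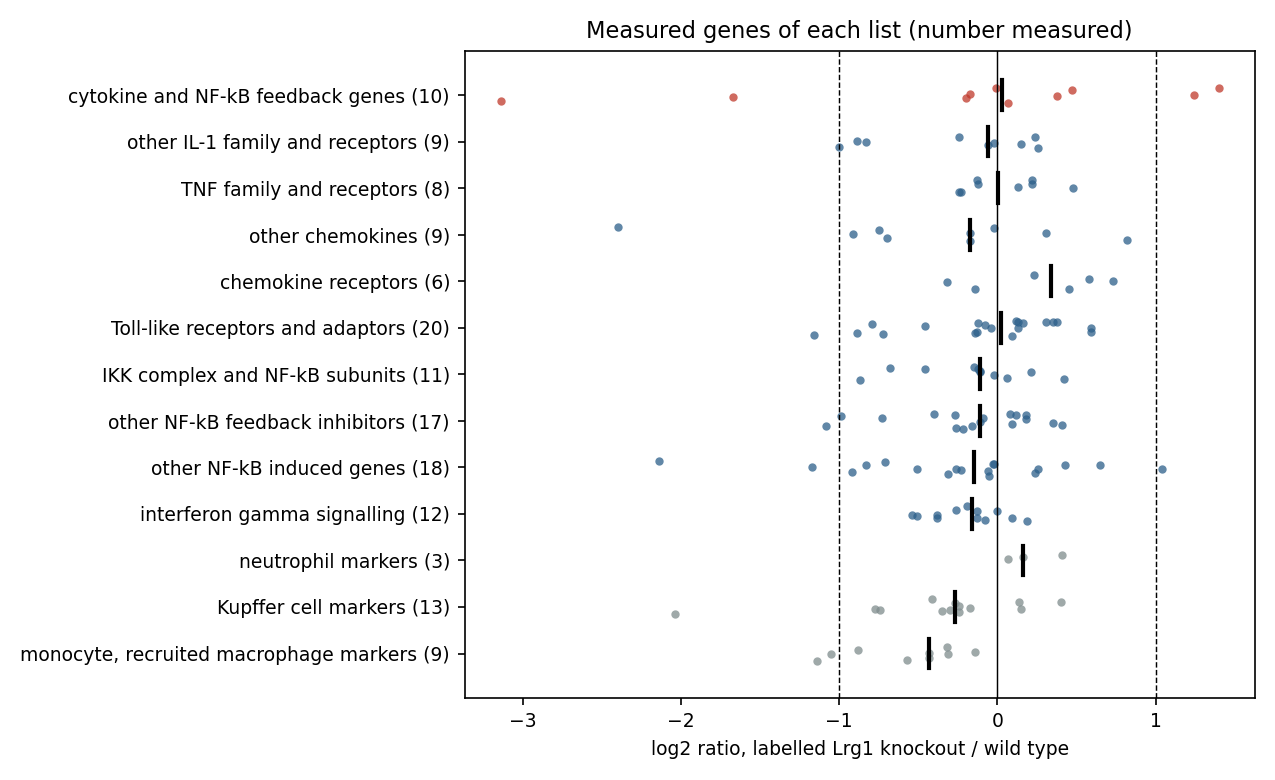
Log2 ratio of the library labelled Lrg1 knockout to wild type for each measured gene of the 10 cytokine and NF-kB feedback genes (red), 9 lists of related pathway genes (blue) and 3 lists of cell markers (grey), with a black bar at each median and dashed lines at 2-fold. The 10 genes, chosen with earlier results of these data known, reach from -3.14 to 1.40, and medians of the pathway lists lie between -0.17 and 0.34.

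Markers of the macrophages that express many of these genes were mostly lower. The 13 Kupffer cell markers, all measured, summed to 740 CPM in the library labelled knockout and 820 CPM in wild type, with 3 higher and 10 lower and a median log2 ratio of -0.27. Clec4f, the most specific of them, was at 0.15 on 2335 labelled-knockout and 2472 wild-type reads, and the scavenger receptor Marco at -2.04 on 233 labelled-knockout and 1125 wild-type reads. The 12 monocyte and recruited macrophage markers summed to 83.9 CPM in the library labelled knockout and 146 CPM in wild type, and the 9 measured were all lower, with Lyz2 at -1.05 and Gpnmb at -1.14. All 13 and all 12 had reads in both libraries. Il1a and Il1b were thus higher in the library in which most macrophage markers were lower, and the part of macrophage number in any of the ratios was not tested.

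Per length, the order of the genes differed between the libraries. Levels were divided by the exon length of each gene in GENCODE M21 to give CPM per kilobase. This length joins the exons of all annotated transcripts of a gene, 12061 bases for Nfkb1 and 7226 for Tnfaip3. It can exceed the length of the transcripts present, and the annotation used for counting is not stated. The order of genes within a library therefore depends on these lengths too, which the intervals do not cover. Nfkbia was first in both, at 27.4 (25.6 to 29.3) in the library labelled knockout and 31.0 (29.2 to 32.8) in wild type. In the library labelled knockout Cxcl9 (4.83) and Il1b (4.16) came next with overlapping intervals, then Il1a (2.55), Nfkb1 (2.39) and Cxcl10 (2.21), which overlapped each other. Ccl5 (1.73), Cxcl1 (1.52) and Ccl2 (1.32) followed, also overlapping, and Tnfaip3 was last at 0.459 (0.354 to 0.587). These groups were not separate. The interval of Ccl5 (1.18 to 2.44) reached those of Il1a, Nfkb1 and Cxcl10, and those of Cxcl1 (1.15 to 1.98) and Ccl2 (0.885 to 1.9) reached that of Cxcl10.

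In wild type Cxcl1 was second at 13.5 CPM per kilobase (12.4 to 14.7), clear of Cxcl9 at 4.86 (4.35 to 5.41), which came next. Cxcl10 (2.55) and Nfkb1 (2.29) overlapped, and the remaining genes, from Il1b (1.57) through Tnfaip3 (1.47), Ccl5 (1.24) and Il1a (1.07) to Ccl2 (1.01), each overlapped their neighbour in this order. Cxcl1 thus held the second place in wild type and, by its value, the eighth in the library labelled knockout, where counting error does not resolve it from its neighbours.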

How the data were processed

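Liver poly(A) RNA was prepared with a stranded kit from about 500 ng of total RNA, and reads of 50 bases were taken from a single end, per the labels' protocols. Per the submitters' processing notes, bcl2fastq, TopHat2, HTSeq and genome build mm9 were used; no label gives a version, the strand setting or the annotation. Whole-number read counts per symbol, not normalized, are what the authors deposited. Lines naming no gene were left out: reads outside genes were 14.44% and reads in more than 1 gene 0.234% of unique alignments in the library labelled Lrg1 knockout, and 14.01% and 0.231% in wild type.

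Counts were scaled by TMM in edgeR 4.0.16 (R 4.3.3), with factors of 1.03 in the library labelled knockout and 0.972 in wild type. A prior count of 0.5 was added before log2 ratios were taken (labelled knockout over wild type). Measured genes had at least 50 summed reads and held 99.9% of reads. Reads carry no molecular identifiers and may repeat a molecule, so intervals cover counting error only. With 1 library per group no p-value is given. The log2 ratios and their intervals were tested on counts simulated with counting error only, and the other steps were not.

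The genes and lists were chosen with earlier results of these data known; beyond the 10 genes, their cluster neighbours and Lrg1, each list names measured genes 2-fold apart, farthest first, then those with most reads, up to 4. A result for 1 or more genes that this rule names is not reported here. Cxcr2, Mpo, Camp, Tnf, Ifng and Pycard, and the NF-kB consensus, were chosen after values were seen. Older symbols were matched through RefSeq synonyms; alternatives are given at the end. RefSeq and GENCODE M21 coordinates are on GRCm38 and were not mixed with mm9. DESeq2 1.42.0 gave alternative size factors. Intervals came from scipy 1.17.1 and figures from matplotlib 3.10.9, under Python 3.11.15.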

Additional observations from a re-analysis of the deposited data

Results flagged for a closer look

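Alignments that were not unique lie outside the counts per gene and amounted to 58.0% of HTSeq's lines for the library labelled knockout and 50.3% for wild type, and drew attention as signal that no comparison here reads. Exposure of the 10 genes to such alignments was checked only by exact matches to annotated transcripts, which were few. Windows of 50 bases shared with transcripts of other genes made up 0.472% of the windows of Cxcl9 and 0.37% of those of Nfkb1, and 0 of the windows of the other 8 genes.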

How the results depend on the processing

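No paired analysis was possible because each group has 1 library, and no library could be left out. Under the scalings, the prior count of 2 and thinning of the wild-type library, the log2 ratios of the 10 genes stayed within their counting intervals in 50 of 50 cases. They ran from -3.16 to -3.06 for Cxcl1, from -1.67 to -1.59 for Tnfaip3, from 1.37 to 1.48 for Il1b and from 1.21 to 1.32 for Il1a. Only Cxcl9 changed sign, in 2 of 5 alternatives, and the 6 balances between genes stayed within their intervals under both alternatives that can move them, the prior count of 2 and thinning. The interval of Nfkbia left out 1 with TMM and DESeq2 size factors and included it with the other 2 scalings. With at least 200 summed reads 1 of the 10 genes was 2-fold higher (Il1b), since Il1a has 145, and at 3-fold 0 were higher. Among all measured genes the higher and lower counts follow the filter and threshold by construction: a minimum of 1 read gave 1243 and 1449, of 10 reads 458 and 525, and of 200 reads 100 and 166, while a threshold of 1.5-fold gave 667 and 789 and one of 3-fold 51 and 105. Scaling by total count moved the median of all measured genes by 0.083 (log2), the largest move among the scalings. The counting errors used as limits for ratios and list medians were wider than this, so under the scalings staying within them was nearly given. List medians moved by less than the counting error of a typical member in 89 of 89 cases, but those near 0 changed sign or came to 0: the other interleukin 1 genes in 2 of 10 alternatives, tumour necrosis factor genes in 4 of 10, Toll-like receptor genes in 3 of 10, list means included, and other chemokines from 200 reads (0.07). Depth limits Ccl2 and Ccl5 most.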

Other observations

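Lymphocyte and dendritic cell markers, whose cells respond to Cxcl9, Cxcl10 and Ccl5, were counted at low levels. The 13 T and NK cell markers summed to 7.83 CPM in the library labelled Lrg1 knockout and 5.30 CPM in wild type, a ratio of 1.48 (1.16 to 1.89), but only Cd4 was measured, at log2 -0.17. The 6 B cell markers summed to 10.9 CPM in the library labelled knockout and 4.55 CPM in wild type, which rests mostly on Igj, the joining chain of plasma cell antibodies, with 156 labelled-knockout and 56 wild-type reads. The 8 dendritic cell markers summed to 9.80 CPM in the library labelled knockout and 8.12 CPM in wild type, a ratio of 1.21 (0.980 to 1.49).

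Markers of sinusoidal endothelium, which lines the liver's blood spaces, summed to 385 CPM in the library labelled knockout and 265 CPM in wild type, with 8 of 10 higher and Dnase1l3 at 1.04 and Kdr at 1.0. Stellate cell markers summed to 404 CPM in the library labelled knockout and 399 CPM in wild type, with 8 of 10 higher and the collagen gene Col1a1 at -1.07. The 6 cholangiocyte markers summed to 9.33 CPM in the library labelled knockout and 9.40 CPM in wild type.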
